A study of Mus musculus with 6 samples.

Results

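The genes described here are 33 genes that microglia, the resident macrophages of the retina and brain, use to sense, engulf and digest. They were listed by name and found through the platform's probe annotation, and each gene was read from a single probe set, its brightest by mean over all 6 arrays. All 33 were measured, among 18193 genes in all. Microglia derive from yolk-sac progenitors and, in the first postnatal days, move through the retinal layers, remove dying neurons and prune synapses with the help of complement. Their survival depends on the receptor encoded by Csf1r, and the factor PU.1, encoded by Spi1, sets up much of their gene expression. Many of these genes are shared with other macrophages and leukocytes, and Apoe, Ctsd and Sall1 are also known from other cell types of the retina or the developing nervous system.

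The study profiled subtypes of retinal neurons, and its arrays were hybridised with RNA from retinal cells that were taken from C57BL/6 mice on postnatal day 6. Hb9 cells were positive for both GFP and Thy1 and are labelled as Hb9 retinal ganglion cells, with 2 arrays. Drd4 cells were also positive for GFP and Thy1 and are labelled as Drd4 retinal ganglion cells, with 2 arrays. Thy1 cells were positive for Thy1 alone as far as the labels say and served as the broader ganglion cell sort, with 2 arrays. All cells were dissociated with papain and purified by flow cytometry, and the RNA passed through 2 rounds of amplification before biotin labelling. Replicates came from separate litters, per the series text. The sources used here do not give the constructs that drive GFP, the number of animals per sort or any depletion of immune cells. In such bulk sorts, fewer cells of a type and less RNA per cell cannot be told apart.

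The arrays were alike in brightness, with median intensities of 45.5 to 47.7 and 68.2% to 78.9% of genes above a background reference, defined on each array as the brightest of 27 Bacillus subtilis control probe sets (4.95 to 5.38 on the log2 scale). Of the 11 measured ganglion cell markers, 10 lay above this reference on all 6 arrays, and their summed intensity was 32695 and 31582 on the Hb9 arrays, 30740 and 29940 on the Drd4 arrays and 28553 and 28516 on the Thy1 arrays. The gene Thy1, the antigen of the sort, measured 11.66 and 11.50 in Hb9 cells, 11.73 and 11.78 in Drd4 cells and 11.24 and 11.24 in Thy1 cells on the log2 scale. One array stood apart for the microglial genes, although not in overall brightness: Thy1 replicate 1 held the highest value of all 33 of them. Results that rest on it are given below with and without it.

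Signal of the microglial genes was measured in every sort and was strongest in the Thy1 cells. The summed intensity of the 33 genes was 3391 and 4337 on the Hb9 arrays and 6121 and 2633 on the Drd4 arrays, against 22491 and 12986 on the Thy1 arrays. As a share of the summed intensity of all genes, this was 0.0707% and 0.0900% in Hb9 cells and 0.131% and 0.0578% in Drd4 cells, against 0.502% and 0.282% in Thy1 cells. The median member measured 5.86 and 5.85 in Hb9 cells, 6.13 and 5.60 in Drd4 cells and 8.38 and 7.61 in Thy1 cells on the log2 scale, while the median of all genes stayed between 6.12 and 6.22 on the 6 arrays. Members above the background reference numbered 23 and 24 on the Hb9 arrays, 31 and 21 on the Drd4 arrays and 32 and 32 on the Thy1 arrays. Of all genes, 68.2% and 70.8% were above it on the Hb9 arrays, 78.9% and 71.7% on the Drd4 arrays and 74.9% and 74.9% on the Thy1 arrays. The members' share was thus near that of all genes on the Hb9 arrays and under it on Drd4 replicate 2. In the Thy1 sort all 7 genes of the homeostatic state lay above background on both arrays, as did 74.9% of all genes on each. On Thy1 replicate 2 these 7 ranked from the 46.5th percentile of genes for Gpr34 to the 76.9th for Cx3cr1. Ctss, the lysosomal protease cathepsin S, ranked at the 91.2nd and 93.1st percentile of genes in Hb9 cells, the 96.2nd and 84.2nd in Drd4 cells and the 99.6th and 98.9th in Thy1 cells.

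**Figure D1:**
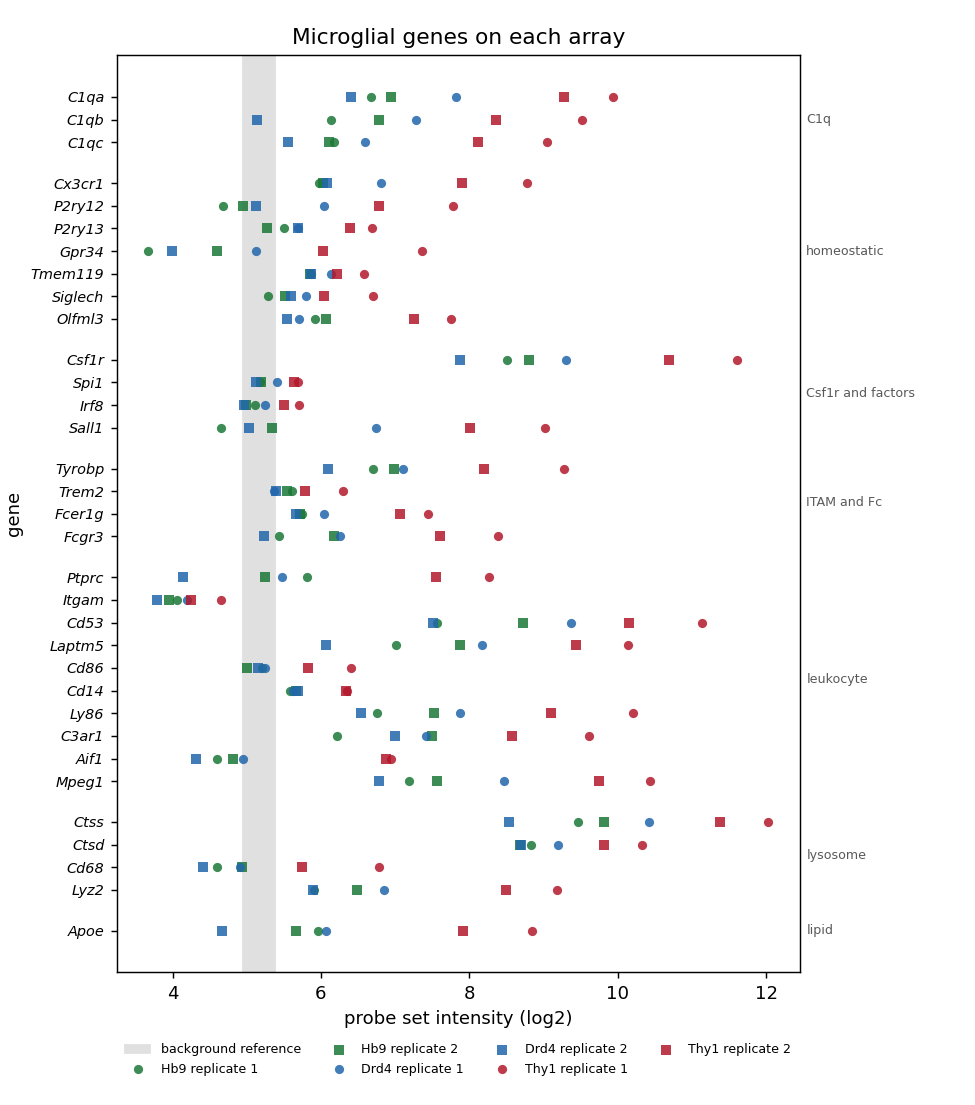
Log2 intensity (horizontal axis) of each of the 33 microglial genes, grouped by role, on the 2 Hb9, 2 Drd4 and 2 Thy1 arrays, with 1 point per array and the background reference as a grey band. The Thy1 points lie to the right of the points of both GFP lines for every gene, and Itgam lies below the background reference on all 6 arrays.

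Both GFP lines held less microglial RNA than the Thy1 sort. In Hb9 cells 28 of the 33 genes fell relative to Thy1 cells and 0 rose, by limma with Benjamini-Hochberg adjustment over all genes at a threshold of 0.05, where 3.19% of all genes fell, 3.52% rose and 6.71% did either. In Drd4 cells 27 fell and 0 rose, where 3.96% of all genes fell, 1.51% rose and 5.47% did either. The median log2 difference of the members was -2.20 in Hb9 cells and -2.14 in Drd4 cells, against 0.04 and 0.02 for the median gene of the same comparisons. For all 33 members, both Hb9 arrays lay below both Thy1 arrays, as they did for 21% of all genes, and both Drd4 arrays lay below both Thy1 arrays, as they did for 19.3% of all genes. The 2 comparisons share the Thy1 arrays and are therefore not independent of each other, and the members, read on the same arrays, are not replicates of a condition. Without adjustment all 33 had p under 0.05 with a negative difference in both comparisons and 0 with a positive one. Siglech passed after adjustment in Hb9 cells alone, and Tmem119, Spi1, Irf8, Trem2 and Itgam passed in neither comparison, and a difference between these comparisons is tested by setting the lines against each other, as is done further on.

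Over all genes, calls became fewer without Hb9 replicate 1 in Hb9 cells and without Thy1 replicate 1 in both lines. Losses of calls without one of these arrays were therefore not confined to the members, though the shares lost were not compared. With robust moderation of the spread the loss fell mainly on the members. Genes called lower over all genes then numbered 557 in Hb9 cells and 684 in Drd4 cells, against 580 and 721 in the fit reported above. Most of the members' calls were lost without the array of Thy1 replicate 1. Without it, 10 of the 28 members still passed in Hb9 cells and 13 of the 27 in Drd4 cells, and the median differences were -1.81 and -1.60. Without Hb9 replicate 1, 15 passed in Hb9 cells, and robust moderation of the spread left 15 in Hb9 cells and 16 in Drd4 cells. In Hb9 cells, 9 members passed under each of the 15 other settings tried: Aif1, C1qa, C1qc, Cx3cr1, Fcer1g, Lyz2, Olfml3, P2ry12 and P2ry13. In Drd4 cells, 12 did so: Aif1, Apoe, C1qa, C1qc, Cd68, Cx3cr1, Fcer1g, Fcgr3, Lyz2, Olfml3, Ptprc and Tyrobp. The sign of the difference was negative for all 33 members in both comparisons under each of the 15 settings that measured them; Gpr34 and Itgam had no value in the setting that left out dim genes.

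**Figure D2:**
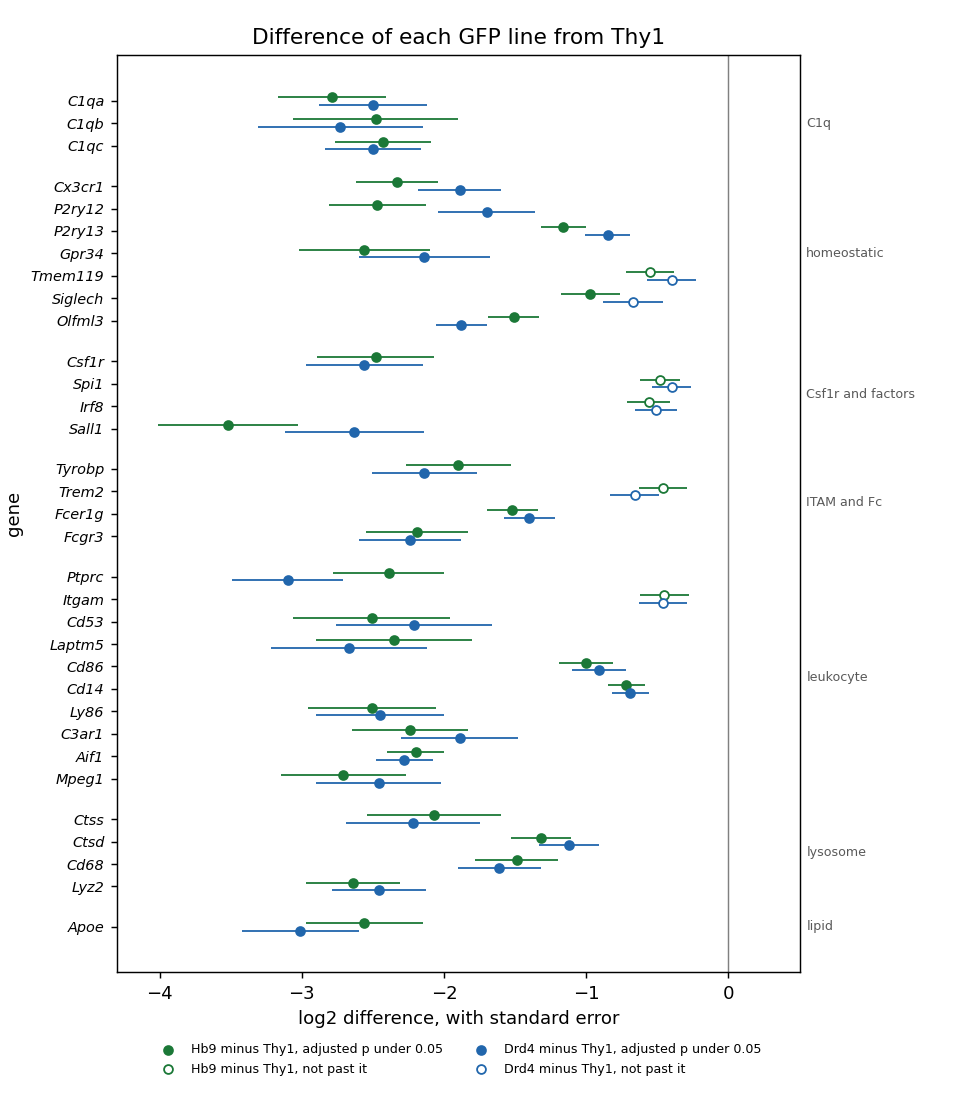
Log2 difference of each microglial gene in Hb9 cells minus Thy1 cells and in Drd4 cells minus Thy1 cells (horizontal axis), with standard errors from limma as bars (2 arrays per group) and open points for differences that did not pass. All points lie below 0, from -3.52 for Sall1 in Hb9 cells to -0.40 for Tmem119 and Spi1 in Drd4 cells.

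The first group, C1qa, C1qb and C1qc, encodes the 3 chains of C1q, the recognition molecule of the classical complement pathway, which tags synapses and debris for engulfment. All 3 genes fell in both lines. C1qa measured 6.68 and 6.95 in Hb9 cells, 7.82 and 6.40 in Drd4 cells and 9.93 and 9.28 in Thy1 cells on the log2 scale. C1qb measured 6.14 and 6.78 in Hb9 cells, 7.28 and 5.14 in Drd4 cells and 9.52 and 8.36 in Thy1 cells. C1qc measured 6.18 and 6.11 in Hb9 cells, 6.60 and 5.56 in Drd4 cells and 9.05 and 8.11 in Thy1 cells. Within each GFP line the Hb9 arrays were close together for C1qa and C1qc, whereas Drd4 replicate 1 lay well above Drd4 replicate 2 for all 3 genes. C1qa was 6.93-fold lower in Hb9 cells (log2 difference -2.79 ± 0.38, SE; limma adjusted p = 0.00331) and 5.64-fold lower in Drd4 cells (-2.50 ± 0.38; limma adjusted p = 0.00341). C1qc differed by -2.43 ± 0.34 in Hb9 cells and -2.50 ± 0.34 in Drd4 cells (limma adjusted p = 0.00384 and 0.00183). C1qb, whose standard error of 0.58 was the largest of the members, differed by -2.48 and -2.73 (limma adjusted p = 0.033 and 0.0212). C1qb lost its call in both lines without Thy1 replicate 1 and with robust moderation, and in Hb9 cells also without either Hb9 array.

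The C1q genes also lie side by side: in the RefSeq annotation of GRCm38.p6, C1qb, C1qc and C1qa are 3 neighbouring protein-coding genes on chromosome 4. Promoters are shown here because the members moved together and because Spi1, one of them, encodes PU.1, an ETS factor that binds sites with a GAGGAA core. RefSeq's GRCm38.p6 table held 25 of the 33 members, with 32 promoters of 250 bases before the start, and a search on both strands found GAGGAA in 13 of the 25 members (52%) and in 25.9% of the 27025 genes of the table. The longer GAGGAAGT, which contains the core, was found in C1qc alone of the members (4%, and 2.79% of all genes). The ETS-IRF composite element, a joint site of both factor families, was found in 0 members and in 2.68% of all genes. TGTGGT, a site of RUNX factors, was found in 6 members (24%) and in 15.9% of all genes. Capitals mark GAGGAA or its reverse complement in the 6 promoters below, which run 5′ to 3′ on the gene's strand: 2 of the C1q genes, 2 lysosomal genes of high intensity, Trem2 with the core but without a passing difference, and Cx3cr1 without the core but with one.
C1qb: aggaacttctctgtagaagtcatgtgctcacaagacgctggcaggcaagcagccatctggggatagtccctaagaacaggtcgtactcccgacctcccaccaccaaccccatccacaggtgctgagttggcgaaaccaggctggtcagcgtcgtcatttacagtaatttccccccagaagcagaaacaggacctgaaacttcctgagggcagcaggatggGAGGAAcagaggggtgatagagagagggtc
C1qc: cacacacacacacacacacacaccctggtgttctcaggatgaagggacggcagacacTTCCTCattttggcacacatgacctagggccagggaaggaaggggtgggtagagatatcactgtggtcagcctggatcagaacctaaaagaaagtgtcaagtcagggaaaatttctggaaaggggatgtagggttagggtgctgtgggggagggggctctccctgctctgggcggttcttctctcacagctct
Ctss: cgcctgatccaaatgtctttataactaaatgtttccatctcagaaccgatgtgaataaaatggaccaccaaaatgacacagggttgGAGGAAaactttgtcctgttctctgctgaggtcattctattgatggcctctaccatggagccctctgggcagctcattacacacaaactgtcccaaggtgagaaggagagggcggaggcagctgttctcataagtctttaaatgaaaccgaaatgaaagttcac
Laptm5: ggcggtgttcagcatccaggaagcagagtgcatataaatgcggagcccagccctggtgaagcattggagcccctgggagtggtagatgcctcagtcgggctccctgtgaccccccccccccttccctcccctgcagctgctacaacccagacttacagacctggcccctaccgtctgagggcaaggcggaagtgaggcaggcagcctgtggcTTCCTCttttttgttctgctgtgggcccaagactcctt
Trem2: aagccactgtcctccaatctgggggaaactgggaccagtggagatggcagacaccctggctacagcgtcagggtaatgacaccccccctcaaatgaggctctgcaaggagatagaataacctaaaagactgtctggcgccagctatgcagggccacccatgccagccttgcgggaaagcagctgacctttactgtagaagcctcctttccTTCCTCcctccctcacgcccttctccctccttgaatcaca
Cx3cr1: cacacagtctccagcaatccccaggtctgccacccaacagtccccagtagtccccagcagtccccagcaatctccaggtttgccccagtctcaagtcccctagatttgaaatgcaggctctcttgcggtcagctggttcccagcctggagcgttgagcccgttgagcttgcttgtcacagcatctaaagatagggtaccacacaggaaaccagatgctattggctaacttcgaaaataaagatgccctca
These are chr4:136886201-136886450 (minus strand) for C1qb, chr4:136892915-136893164 (minus) for C1qc, chr3:95526536-95526785 (plus) for Ctss, chr4:130913066-130913315 (plus) for Laptm5, chr17:48346151-48346400 (plus) for Trem2 and chr9:120068297-120068546 (minus) for Cx3cr1. The core lay 30 bases before the start in C1qb, 38 in Laptm5, 40 in Trem2, 164 in Ctss and 193 in C1qc. Members with and without the core showed like differences: of the 13 with it, 11 fell in each line, with medians of -2.20 in Hb9 cells and -2.24 in Drd4 cells, and of the 12 without it, 11 fell in Hb9 cells and 10 in Drd4 cells, with medians of -2.29 and -1.88. The match describes the letters of these windows and not the binding of a factor.

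The second group holds genes of the homeostatic state: Cx3cr1, the fractalkine receptor by which microglia read neuronal fractalkine, the ADP-sensing receptors P2ry12 and P2ry13, the lysophospholipid receptor gene Gpr34, and Tmem119, Siglech and Olfml3, which set microglia apart from most other macrophages. Of these 7, 6 fell in Hb9 cells and 5 in Drd4 cells. Cx3cr1 measured 5.98 and 6.03 in Hb9 cells, 6.81 and 6.08 in Drd4 cells and 8.77 and 7.90 in Thy1 cells. P2ry12 measured 4.68 and 4.95 in Hb9 cells, 6.04 and 5.13 in Drd4 cells and 7.78 and 6.78 in Thy1 cells. Both Hb9 arrays thus lay under both Drd4 arrays for these receptors, and P2ry12 was not above background in Hb9 cells. Cx3cr1 was 5.03-fold lower in Hb9 cells (-2.33 ± 0.29; limma adjusted p = 0.00217) and 3.71-fold lower in Drd4 cells (-1.89 ± 0.29; limma adjusted p = 0.00343). For a gene not above background on any array of a group, the fold is given as a bound, computed against the higher of the gene's own value and the background reference. Where 1 of the 2 arrays of a line was above background, as for Siglech, Sall1 and Ptprc in Hb9 cells and C1qb, P2ry12, Gpr34, Spi1, Irf8, Sall1, Ptprc, Cd86, Aif1 and Apoe in Drd4 cells, a fold is given with the other array raised to its reference, a choice made after the data were seen. On this basis P2ry12 was at least 3.91-fold lower in Hb9 cells (limma adjusted p = 0.00322), and with 1 of 2 Drd4 arrays above background it was 3.17-fold lower there (limma adjusted p = 0.014 on the values as measured, as throughout).

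Gpr34 measured 3.67 and 4.60 in Hb9 cells, 5.12 and 3.99 in Drd4 cells and 7.36 and 6.03 in Thy1 cells. It was at least 2.60-fold lower in Hb9 cells and 2.90-fold lower in Drd4 cells with the array under background raised to its reference (limma adjusted p = 0.0117 and 0.0223). Olfml3, a secreted protein of the olfactomedin family, measured 5.92 and 6.07 in Hb9 cells, 5.71 and 5.54 in Drd4 cells and 7.75 and 7.26 in Thy1 cells. It was the one homeostatic gene with both Drd4 arrays under both Hb9 arrays, and it was 2.85-fold lower in Hb9 cells and 3.68-fold lower in Drd4 cells (limma adjusted p = 0.00181 and 0.000218). P2ry13 showed a smaller fall, with 5.50 and 5.27 in Hb9 cells, 5.69 and 5.69 in Drd4 cells and 6.69 and 6.39 in Thy1 cells (-1.16 ± 0.16 and -0.85 ± 0.16; limma adjusted p = 0.00301 and 0.00928). Siglech, a sialic acid-binding lectin, measured 5.28 and 5.52 in Hb9 cells, 5.80 and 5.60 in Drd4 cells and 6.70 and 6.04 in Thy1 cells. Its difference passed in Hb9 cells (-0.97 ± 0.21; limma adjusted p = 0.0242) and not in Drd4 cells (-0.67 ± 0.21; limma adjusted p = 0.122). Tmem119, whose range over the 6 arrays was narrow, measured 5.86 and 5.85 in Hb9 cells, 6.13 and 5.87 in Drd4 cells and 6.58 and 6.22 in Thy1 cells, and did not pass (-0.55 ± 0.17 and -0.40 ± 0.17; limma adjusted p = 0.081 and 0.295). Without Thy1 replicate 1, the calls of Gpr34 and Siglech in Hb9 cells and of P2ry12, P2ry13 and Gpr34 in Drd4 cells were lost. Gpr34 also lost its call in Hb9 cells without Hb9 replicate 1, in Drd4 cells without Drd4 replicate 2 and in both with robust moderation, Siglech without either Hb9 array, and P2ry12 in Drd4 cells with robust moderation.

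Among the growth factor receptor and the transcription factors, Csf1r and Sall1 fell in both lines, and Spi1 and Irf8 did not pass. Csf1r, the receptor for CSF1 and IL-34 on which microglia depend, was among the bright members, with 8.51 and 8.81 in Hb9 cells, 9.30 and 7.87 in Drd4 cells and 11.61 and 10.69 in Thy1 cells. It was 5.60-fold lower in Hb9 cells and 5.90-fold lower in Drd4 cells (-2.48 ± 0.41 and -2.56 ± 0.41; limma adjusted p = 0.00771 and 0.00405). Sall1, a zinc finger factor that maintains microglial identity and is also used by embryonic progenitors, measured 4.65 and 5.34 in Hb9 cells, 6.74 and 5.03 in Drd4 cells and 9.02 and 8.01 in Thy1 cells. In each line 1 of 2 arrays was above background. The measured differences were -3.52 ± 0.49 in Hb9 cells and -2.63 ± 0.49 in Drd4 cells (limma adjusted p = 0.00355 and 0.0102), and with the other array raised to its reference Sall1 was 8.91-fold lower in Hb9 cells and 5.85-fold lower in Drd4 cells. Spi1 measured 5.18 and 5.19 in Hb9 cells, 5.41 and 5.12 in Drd4 cells and 5.69 and 5.64 in Thy1 cells (-0.48 ± 0.14 and -0.40 ± 0.14; limma adjusted p = 0.0746 and 0.189). Irf8, an interferon regulatory factor required for normal microglial development, measured 5.11 and 4.99 in Hb9 cells, 5.24 and 4.96 in Drd4 cells and 5.71 and 5.50 in Thy1 cells (-0.56 ± 0.15 and -0.51 ± 0.15; limma adjusted p = 0.0534 and 0.0961). Both factors lay close to the background reference in every sort. A second, dimmer probe set for Irf8 passed in both comparisons when every probe set was tested on its own (-0.98 and -1.11; limma adjusted p = 0.0135 and 0.00698). The call of Csf1r in Hb9 cells and that of Sall1 in Drd4 cells were lost without Thy1 replicate 1, and both genes lost both calls with robust moderation.

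Of the 4 genes of Fc receptors and the signalling adaptors with immunoreceptor tyrosine-based activation motifs, 3 fell in each line. Tyrobp, the adaptor that carries the Trem2 signal, measured 6.70 and 6.99 in Hb9 cells, 7.11 and 6.09 in Drd4 cells and 9.28 and 8.20 in Thy1 cells (-1.90 ± 0.37 and -2.14 ± 0.37; limma adjusted p = 0.0153 and 0.00636). Fcer1g, the gamma chain shared by Fc receptors, measured 5.74 and 5.72 in Hb9 cells, 6.04 and 5.67 in Drd4 cells and 7.44 and 7.07 in Thy1 cells (-1.52 ± 0.18 and -1.40 ± 0.18; limma adjusted p = 0.00178 and 0.00121). Fcgr3, a receptor for immunoglobulin G, measured 5.43 and 6.17 in Hb9 cells, 6.26 and 5.23 in Drd4 cells and 8.38 and 7.61 in Thy1 cells, and was 4.57-fold and 4.74-fold lower (limma adjusted p = 0.00773 and 0.00425). Trem2, the lipid-sensing receptor that pairs with Tyrobp, behaved otherwise than its adaptor. It measured 5.61 and 5.54 in Hb9 cells, 5.37 and 5.39 in Drd4 cells and 6.30 and 5.78 in Thy1 cells, so that the 3 groups lay within 1 log2 unit, and it did not pass (-0.46 ± 0.17 and -0.66 ± 0.17; limma adjusted p = 0.145 and 0.0587). Tyrobp and Fcgr3 lost their calls in Hb9 cells without Thy1 replicate 1 and without Hb9 replicate 1, and Tyrobp also with robust moderation.

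The 10 genes of the leukocyte surface and cytoplasm form the broadest group, and 9 of them fell in each line. Ptprc, the phosphatase known as leukocyte common antigen, measured 5.81 and 5.24 in Hb9 cells, 5.47 and 4.14 in Drd4 cells and 8.26 and 7.55 in Thy1 cells. The measured differences were -2.39 ± 0.39 in Hb9 cells and -3.10 ± 0.39 in Drd4 cells (limma adjusted p = 0.00754 and 0.000976). In each line 1 of 2 arrays lay under background, and with it raised to its reference Ptprc was 5.19-fold lower in Hb9 cells and 5.94-fold lower in Drd4 cells. Aif1, the calcium-binding protein IBA1 used to stain microglia, measured 4.60 and 4.81 in Hb9 cells, 4.95 and 4.31 in Drd4 cells and 6.95 and 6.87 in Thy1 cells. Its Thy1 arrays were nearly equal, unlike those of most members, and it was at least 3.02-fold lower in Hb9 cells and, with 1 Drd4 array raised to its reference, 3.57-fold lower in Drd4 cells (limma adjusted p = 0.000452 and 0.000125). Mpeg1, the pore-forming perforin-2 of macrophages, measured 7.19 and 7.56 in Hb9 cells, 8.46 and 6.78 in Drd4 cells and 10.43 and 9.74 in Thy1 cells (-2.71 ± 0.44 and -2.46 ± 0.44; limma adjusted p = 0.00754 and 0.00788). Ly86, which pairs with a Toll-like receptor homologue, measured 6.76 and 7.52 in Hb9 cells, 7.87 and 6.54 in Drd4 cells and 10.20 and 9.10 in Thy1 cells (-2.51 ± 0.45 and -2.45 ± 0.45; limma adjusted p = 0.0111 and 0.00898).

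Cd53, a tetraspanin of leukocytes, measured 7.56 and 8.72 in Hb9 cells, 9.37 and 7.51 in Drd4 cells and 11.14 and 10.15 in Thy1 cells. Its arrays were more than 1 log2 unit apart within each GFP line, and it came closest to the threshold in Drd4 cells (-2.51 ± 0.55 and -2.21 ± 0.55; limma adjusted p = 0.0265 and 0.0482). In Drd4 cells it passed under 6 of the 15 other settings, with adjusted p-values up to 0.357, and was lost with quantile normalization, median centring, the mean of all probe sets, dim genes left out, and moderation without a trend. Laptm5, a lysosomal membrane protein of blood cells, measured 7.01 and 7.87 in Hb9 cells, 8.17 and 6.07 in Drd4 cells and 10.14 and 9.44 in Thy1 cells (-2.35 ± 0.55 and -2.67 ± 0.55; limma adjusted p = 0.033 and 0.0179). C3ar1, the receptor for the complement fragment C3a, measured 6.21 and 7.49 in Hb9 cells, 7.42 and 7.0 in Drd4 cells and 9.61 and 8.58 in Thy1 cells (-2.24 ± 0.41 and -1.89 ± 0.41; limma adjusted p = 0.0122 and 0.0229). The costimulatory gene Cd86 and the endotoxin co-receptor gene Cd14 showed smaller falls. Cd86 measured 5.20 and 5.01 in Hb9 cells, 5.24 and 5.15 in Drd4 cells and 6.40 and 5.82 in Thy1 cells, at least 1.73-fold lower in Hb9 cells and, with 1 array raised to its reference, 1.85-fold lower in Drd4 cells (limma adjusted p = 0.0133 and 0.0176). Cd14 measured 5.58 and 5.67 in Hb9 cells, 5.62 and 5.69 in Drd4 cells and 6.35 and 6.34 in Thy1 cells, with differences of -0.72 ± 0.13 and -0.69 ± 0.13 (limma adjusted p = 0.0128 and 0.0124). Itgam, the integrin alpha chain of complement receptor 3, was not above background on any of the 6 arrays, with 4.06 and 3.95 in Hb9 cells, 4.20 and 3.79 in Drd4 cells and 4.66 and 4.25 in Thy1 cells (limma adjusted p = 0.153 and 0.227). Of the 9 genes, Aif1 in Hb9 cells and Aif1 and Ptprc in Drd4 cells still passed without Thy1 replicate 1. Without Hb9 replicate 1, Cd53, Laptm5, Cd86, Cd14, Ly86 and C3ar1 lost their calls in Hb9 cells, as did Laptm5, Cd86 and Cd14 without Hb9 replicate 2; in Drd4 cells Cd53, Cd86 and C3ar1 lost theirs without Drd4 replicate 2, Cd14 without Drd4 replicate 1, and Cd53 and Cd14 without Thy1 replicate 2. Robust moderation ended the calls of Cd53, Laptm5, Ly86, C3ar1 and Mpeg1 in both lines and of Ptprc in Hb9 cells, and the mean of all probe sets ended both calls of Laptm5.

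All 4 lysosomal genes fell in both lines, and so did Apoe. Ctss measured 9.46 and 9.81 in Hb9 cells, 10.42 and 8.54 in Drd4 cells and 12.03 and 11.38 in Thy1 cells (-2.07 ± 0.47 and -2.22 ± 0.47; limma adjusted p = 0.0289 and 0.0202). Ctsd, the protease cathepsin D that most cells carry, measured 8.83 and 8.68 in Hb9 cells, 9.20 and 8.69 in Drd4 cells and 10.33 and 9.81 in Thy1 cells, the smallest fall among the bright members (-1.32 ± 0.21 and -1.12 ± 0.21; limma adjusted p = 0.00757 and 0.0118). Lyz2, the macrophage lysozyme, measured 5.90 and 6.49 in Hb9 cells, 6.85 and 5.89 in Drd4 cells and 9.18 and 8.49 in Thy1 cells, 6.22-fold lower in Hb9 cells and 5.52-fold lower in Drd4 cells (limma adjusted p = 0.00219 and 0.00158). Cd68, a glycoprotein of phagocytic lysosomes, was above background on the Thy1 arrays alone, with 4.60 and 4.94 in Hb9 cells, 4.91 and 4.41 in Drd4 cells and 6.78 and 5.75 in Thy1 cells. It was at least 1.93-fold lower in Hb9 cells and at least 2.29-fold lower in Drd4 cells (limma adjusted p = 0.0164 and 0.00925). Apoe, the lipid carrier that glia also make, measured 5.96 and 5.67 in Hb9 cells, 6.07 and 4.67 in Drd4 cells and 8.85 and 7.91 in Thy1 cells, 5.91-fold lower in Hb9 cells and, with Drd4 replicate 2 raised to its reference, 6.72-fold lower in Drd4 cells (limma adjusted p = 0.00677 and 0.00162). Without Thy1 replicate 1 the calls of Ctss, Ctsd, Cd68 and Apoe in Hb9 cells and of Ctss and Ctsd in Drd4 cells were lost. Ctss also lost its call in Hb9 cells without either Hb9 array and in both lines with robust moderation, Cd68 in Hb9 cells without Hb9 replicate 1, Ctsd in Drd4 cells without Drd4 replicate 2, and Apoe in Hb9 cells with robust moderation.

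Between the GFP lines, no microglial gene passed the test. Hb9 cells against Drd4 cells gave 0 members higher and 0 lower by limma with Benjamini-Hochberg adjustment, where 4.06% of all genes were higher, 2.06% lower and 6.12% either. The 1 member under 0.05 without adjustment was P2ry12 (limma p = 0.0441 and adjusted p = 0.237; a model across all genes, not an exact test). Its difference was -0.77, with a 95% interval of -1.52 to -0.02. The members' median difference was -0.07 and that of all genes 0.04, with 14 members positive and 19 negative. Both Hb9 arrays lay below both Drd4 arrays for 5 of the 33 members, Cx3cr1, P2ry12, P2ry13, Tmem119 and Siglech. This is a smaller share than the 19.1% of all genes for which they did so. Both Hb9 arrays lay above both Drd4 arrays for Olfml3 and Trem2, as they did for 30.6% of all genes. The order of the group means was Thy1, then Drd4, then Hb9 for 19 members and Thy1, then Hb9, then Drd4 for 14.

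The sign of this comparison depended on single arrays. Without Hb9 replicate 1 the members' median difference was also positive, 0.01 above the all-gene median of 0.026. Without Drd4 replicate 1 the members' median difference, Hb9 minus Drd4, was 0.31, with differences of 1.38 for Ptprc, 1.37 for Laptm5 and 1.09 for Ctss. Without Drd4 replicate 2 the median was -0.45, with differences of -1.01 for C1qa, -1.23 for P2ry12, -1.74 for Sall1 and -1.09 for Mpeg1. In both cases the remaining Drd4 array is assumed to vary like the other groups.

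Array by array, the members shifted as a group within a sort as well as between sorts. Drd4 replicate 1 exceeded Drd4 replicate 2 for 30 of the 33 genes, by a median of 0.91 on the log2 scale, with a range of -0.06 to 2.14. Thy1 replicate 1 exceeded Thy1 replicate 2 for all 33, by a median of 0.70, from 0.01 for Cd14 to 1.33 for Gpr34. Hb9 replicate 1 exceeded Hb9 replicate 2 for 11 of 33, with a median of -0.25. Over all genes the same medians were -0.01 in Drd4 cells, -0.02 in Thy1 cells and 0.02 in Hb9 cells. Among the members the median gap between replicates, without regard to sign, was 0.27 in Hb9 cells, 0.91 in Drd4 cells and 0.70 in Thy1 cells, against 0.14, 0.17 and 0.16 over all genes. The replicates of a group have no order beyond their number. Whether these shifts belong to single sorts or to a batch shared between groups was not tested. Drd4 replicate 1 lay above Hb9 replicate 1 for 30 members and above Hb9 replicate 2 for 28, whereas Drd4 replicate 2 lay below them for 24 and 25. Even between the closest arrays of a GFP line and the Thy1 sort, Drd4 replicate 1 and Thy1 replicate 2, all 33 members were lower in the Drd4 array, by a median of -1.08.

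**Figure D3:**
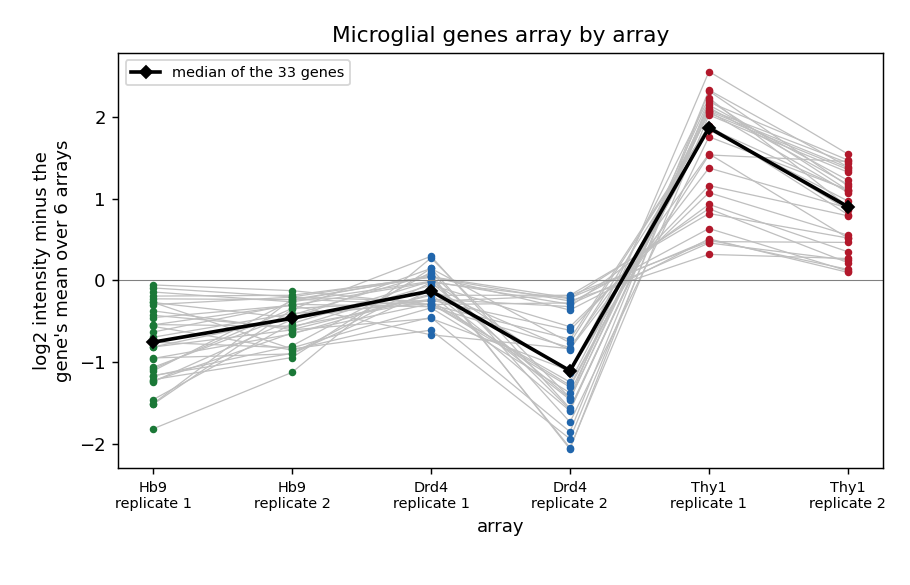
Each microglial gene on each of the 6 arrays, as its log2 intensity minus its mean over the arrays (vertical axis), joined gene by gene, with the members' median marked. Most lines run in parallel from array to array, with Drd4 replicate 1 above Drd4 replicate 2 for 30 genes and Thy1 replicate 1 above Thy1 replicate 2 for all 33.

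Whether the members moved in step was asked by subtracting each array's member median before the fit, so that a gene that follows the common shift has a relative difference of 0. In this scale 10 of the 33 members departed from the common shift in Hb9 cells and 10 in Drd4 cells by limma with Benjamini-Hochberg adjustment, and 0 did so between the lines, also without adjustment. Of all genes, 98.7% departed in Hb9 cells, 98.2% in Drd4 cells and 0.649% between the lines, since most genes did not share the members' fall. With nearly all genes past the threshold against Thy1, the adjustment corrected little there, and without it the counts were also 10 and 10. For 9 members, of which 6 did not pass against Thy1 in at least 1 line, the difference was smaller than the common shift in both lines: P2ry13, Tmem119, Siglech, Spi1, Irf8, Trem2, Itgam, Cd86 and Cd14. Their relative differences were between 0.98 for P2ry13 and 1.69 for Itgam in Hb9 cells and between 1.22 for Cd86 and 1.73 for Tmem119 and Spi1 in Drd4 cells. Sall1 had a larger difference than the common shift in Hb9 cells (relative difference -1.38; limma adjusted p = 0.00475), and Ptprc did so in Drd4 cells (-0.98; limma adjusted p = 0.0403). The remaining 22 members did not pass in either line at this setting. The members' median standard error on this scale was 0.49. That spread draws on all genes, and with the spread of each gene alone the median was 0.31. With the spread of each gene taken alone, a setting chosen after the data were seen, 11 members departed in each line. Sall1 and P2ry13 in Hb9 cells and Ptprc in Drd4 cells were then no longer among them (Benjamini-Hochberg adjusted p = 0.093, 0.0509 and 0.0954 from limma's unmoderated fit). Fcer1g (0.0412 and 0.0322) and the bright Ctsd (0.0247 and 0.0269) were added in both lines, and Cd68 (0.0373) in Hb9 cells.

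The size of the difference went with the brightness of the probe set. Brightness was the mean over all 6 arrays, including the Thy1 arrays that enter each difference. The link is therefore partly built in. Of the 11 dimmest members by mean over the arrays (4.15 to 5.88), 7 fell in Hb9 cells and 6 in Drd4 cells, with median differences of -0.97 and -0.69. Of the 11 in the middle (5.89 to 7.13), 10 fell in each line, with medians of -2.39 and -2.24. All 11 of the brightest (7.20 to 10.27) fell in each line, with medians of -2.48 and -2.45. Among the members that departed from the common shift, 8 were in the dimmest group, 2 in the middle group and 0 in the brightest group in each line. The part of dim signal in these smaller differences was not tested. Aif1 and Gpr34, both of the dimmest group, had measured differences of -2.20 and -2.56 in Hb9 cells. Neither was above background there, and as bounds they were at least 3.02-fold and at least 2.60-fold lower. Tmem119, of the middle group, had a difference of -0.55 in Hb9 cells.

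**Figure D4:**
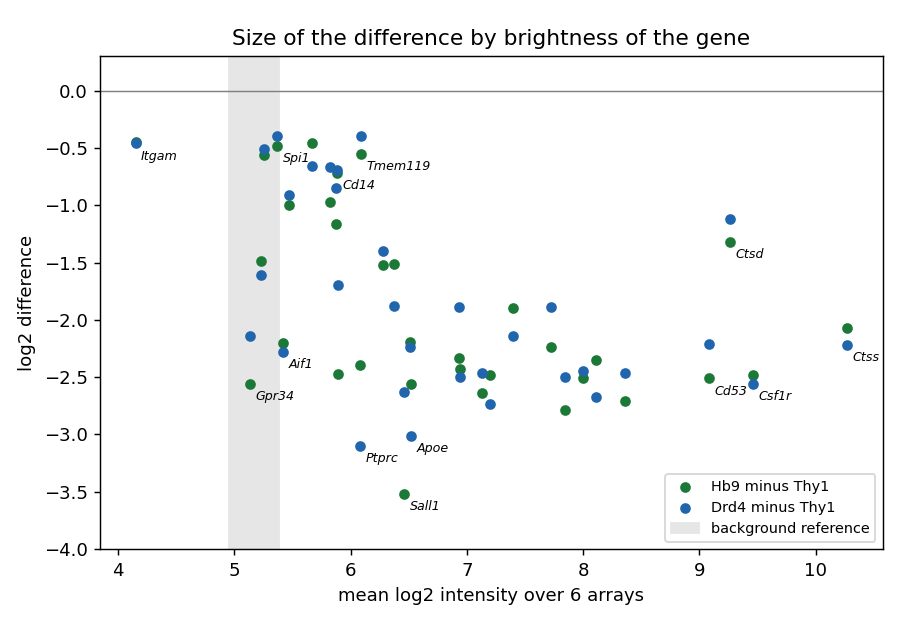
Mean log2 intensity of each microglial gene over the 6 arrays (horizontal axis) against its log2 difference in Hb9 minus Thy1 and Drd4 minus Thy1 (vertical axis), with the background reference as a grey band. The 11 brightest genes lie between -2.79 and -1.12, and the 11 dimmest between -2.56 and -0.40.

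Further probe sets for the same genes mostly pointed the same way. The 33 members had 50 probe sets, and 11 members had more than 1. Of the 17 probe sets not used above, 11 were above background on 2 or more arrays. In Hb9 cells 16 of the 17 had a negative difference and 8 fell by limma with Benjamini-Hochberg adjustment over all probe sets, and in Drd4 cells 15 were negative and 6 fell, with 0 higher in either. The second probe set of Trem2 had a difference of 0.21 in Hb9 cells, and those of Cx3cr1 (-0.05), Ptprc (-0.03), Cd53 (-0.02) and Sall1 (-0.19) were near 0 there, so that for these genes the probe sets disagreed in size. Each of those 5 probe sets was above background on at most 1 array. Bright probe sets disagreed too. Of the other 4 probe sets of Laptm5, all above background on 6 arrays, 3 did not pass, with differences of -0.28, -0.62 and -0.50 in Hb9 cells and -0.02, -0.25 and -0.43 in Drd4 cells. One of the other 2 of Csf1r, also above background on 6 arrays, did not pass either (-0.93 and -0.96; limma adjusted p = 0.0899 and 0.129). When each gene's probe sets were averaged, Laptm5 lost its call in both lines and Cd53 in Drd4 cells. Ctss also lost its call in Hb9 cells in that setting, although it has a single probe set and its own values were unchanged.

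Genes outside the 33 members were set beside them in lists of cell types. Of 40 other microglial and macrophage genes, 18 fell in Hb9 cells and 15 in Drd4 cells and 0 rose, with medians of -0.58 and -0.51. They included Cd52, a small glycoprotein of leukocytes (-2.42 in Hb9 cells and -2.18 in Drd4 cells; limma adjusted p = 0.00181 and 0.00152), and Runx1, a factor of blood cell and microglial development (-1.90 and -2.64; limma adjusted p = 0.019 and 0.00257). Without Hb9 replicate 1 the count in Hb9 cells was 5 and the call of Runx1 there was lost, and without Thy1 replicate 1 the count in Drd4 cells was 7. Of 13 general lysosomal genes, 8 fell in Hb9 cells and 6 in Drd4 cells, among them Ctsz, a carboxypeptidase cathepsin (-1.80 and -1.82; limma adjusted p = 0.00153 and 0.000588). Without Thy1 replicate 1 these counts were 1 and 4. Of the T and NK cell genes (8 measured), the neutrophil genes (7) and the B cell genes (4), 0 fell and 0 rose in either comparison by limma; without adjustment, 0 T and NK cell genes, 1 neutrophil gene in Drd4 cells and 1 B cell gene in each line had p under 0.05. The summed intensity of the T and NK cell genes was 377 and 364 in Hb9 cells, 380 and 381 in Drd4 cells and 415 and 367 in Thy1 cells, with Cd4 and Cd3e the brightest of them. Only 4 of these 8 genes, 3 of the 7 neutrophil genes and 0 of the 4 B cell genes were above background on all 6 arrays. Genes under it could hardly show a fall. Of 10 macrophage genes of the meninges and vessels, 0 fell by limma in either comparison (2 in Hb9 cells and 1 in Drd4 cells without adjustment), 1 rose in Drd4 cells, and 3 were not above background on any array.

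Markers of some other cell types moved with the sorts as well. Of 8 pericyte genes, 5 fell in Hb9 cells and 6 in Drd4 cells, with medians of -2.11 and -2.33. Vtn, vitronectin, differed by -2.20 in Hb9 cells and -2.28 in Drd4 cells (limma adjusted p = 0.000323 and 6.55e-05), and Pdgfrb, the receptor for platelet-derived growth factor on pericytes, by -3.27 and -5.24 (limma adjusted p = 0.0182 and 0.00103). The summed intensity of the pericyte genes was 1947 and 1550 in Hb9 cells and 1135 and 269 in Drd4 cells, against 7930 and 9070 in Thy1 cells. With robust moderation 3 pericyte genes fell in each line, and Pdgfrb lost both calls; in Hb9 cells it also lost its call without any 1 of the Hb9 and Thy1 arrays. Of 7 genes of dividing cells, 4 fell in Hb9 cells and 6 in Drd4 cells, including Top2a, a topoisomerase of the division cycle (-1.61 and -1.59; limma adjusted p = 0.0018 and 0.00079), and without Hb9 replicate 2 the count in Hb9 cells was 1. Their summed intensity was 311 and 306 in Hb9 cells and 251 and 226 in Drd4 cells, against 459 and 747 in Thy1 cells. Among 10 Müller glia genes Vim, vimentin, fell in both lines (-1.73 and -2.0; limma adjusted p = 0.00137 and 0.000218), and Dkk3 rose in Drd4 cells (1.12; limma adjusted p = 0.00257). Vim was the only 1 of these 10 to fall, and the medians of the Müller glia list were -0.14 in Hb9 cells and -0.04 in Drd4 cells. Of 10 endothelial genes, 1 fell in Hb9 cells and 2 in Drd4 cells, with medians of -0.05 and -0.14. Of 5 astrocyte genes 0 and 1 fell, and of 4 rod genes 0 fell in either line. The Thy1 replicates were ordered differently by list. Replicate 1 was the higher for all 33 microglial genes. Replicate 2 was the higher for 6 of 8 pericyte genes and 6 of 7 genes of dividing cells. The part of these other cell types in the microglial result was not tested.

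**Figure D5:**
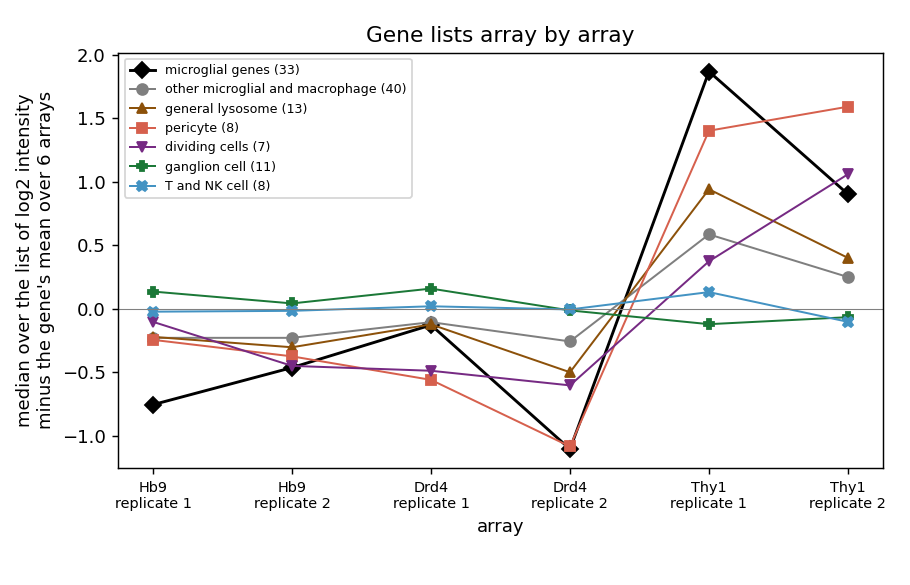
Median over each gene list of the log2 intensity minus the gene's mean over the 6 arrays (vertical axis), by array, for the microglial genes and 6 other lists. The microglial genes are at -0.75 and -0.46 on the Hb9 arrays, -0.13 and -1.10 on the Drd4 arrays and 1.87 and 0.90 on the Thy1 arrays, and the T and NK cell genes stay between -0.10 and 0.13.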

How the data were processed

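The authors deposited 1 table of probe set intensities for the 6 arrays, on a linear scale by their values, with 2 arrays per group assigned by the sample titles. How those intensities were background-corrected, summarised and normalized, and with which software, was not stated in the labels or file headers. The log2 of each deposited intensity was taken with no further normalization. Of 45101 probe sets, 64 were controls, 34945 named 1 gene in the platform annotation, 932 several and 9160 none. Entrez identifiers matched 34741 of them to RefSeq's mouse genes and 0 symbols changed, and the probe set with the highest mean per gene left 18193 genes.

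Group means were fitted over all 6 arrays with limma 3.58.1 in R 4.3.3 (empirical Bayes with an intensity trend, 3 residual and 6.98 prior degrees of freedom), two-sided, with Benjamini-Hochberg adjustment over the 18193 genes at 0.05. Over all genes the standard error of a difference had a median of 0.15 on the log2 scale. Precision is limited by the number of arrays: exact permutation of 2 against 2 reaches p = 0.333 at the smallest. The members and lists were chosen with earlier results of these data known. All members are named, with up to 3 passing genes of each other list by size of difference, or the 2 brightest where none passed; the ligands of microglial receptors and the gene Thy1 are named throughout. The alternatives were 15 settings of normalization, probe set choice, filter, moderation, offset, replicate block, arrays left out and groups in the fit. Whether replicates of different groups pair was not settled. Their deviations from the group means correlated at -0.28 for Hb9 and Drd4, -0.19 for Hb9 and Thy1 and 0.37 for Drd4 and Thy1. With a block that crossed the Hb9 numbers, chosen after the data were seen, 3225 genes passed in Hb9 against Thy1 cells (1220 without a block). In Drd4 against Thy1 cells 1575 passed (995), and in Hb9 against Drd4 cells 2623 (1113). A batch shared between the groups was not tested. Promoters are RefSeq's, build GRCm38.p6.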

Additional observations from a re-analysis of the deposited data

How the results depend on the processing

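Under the 15 planned settings the members' counts and medians against Thy1 kept their direction. The median between the lines changed sign when Drd4 replicate 1 or Hb9 replicate 1 was left out. In Hb9 against Thy1 cells, robust moderation gave 15 members lower and the mean of all probe sets a median of -1.52; leaving out 1 array gave 10 to 30 members lower, medians of -2.58 to -1.81 and 5 to 11 members off the common shift. In Drd4 against Thy1 cells, robust moderation gave 16 members lower, the mean of all probe sets a median of -1.58 and an offset of 16 a median of -1.73; leaving out 1 array gave 13 to 27 members lower, medians of -2.60 to -1.57 and 5 to 13 off the common shift. In Hb9 against Drd4 cells, leaving out 1 array gave 0 to 3 members higher, 0 to 4 lower and medians of -0.45 to 0.31. The replicate number as a block gave 29 members lower in Hb9 cells, 28 in Drd4 cells and 0 between the lines, and it ended none of the members' calls. A block with the Hb9 numbers crossed, chosen after the data were seen, gave 31, 29 and 2 lower. Raising values under background to each array's reference, also chosen after the data were seen, gave 30 and 29 members lower, medians of -1.97 and -1.89, and 0.05 between the lines. Calls also rose over all genes: 4.2% were then lower in Hb9 cells and 4.67% in Drd4 cells, against 3.19% and 3.96% on the values as measured. Itgam, under background on every array, then had a positive difference of 0.18 in Hb9 cells. With 2 arrays per group the counts above limit how firmly single members can be read. Signal near background limits Itgam, Spi1, Irf8, Cd68 and Cd86, and in Hb9 cells also P2ry12, Gpr34 and Aif1. The causes of these changes were not tested.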

Other observations

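Genes of signals that reach microglia were set beside these receptors. The 8 measured were ligand genes and Entpd1, which encodes an ectonucleotidase and not a ligand. Tgfb2, a transforming growth factor beta of the kind that microglia need for their homeostatic state, was higher in both lines, with 7.43 and 7.72 in Hb9 cells, 8.02 and 7.37 in Drd4 cells and 6.47 and 6.37 in Thy1 cells on the log2 scale. Its differences were 1.15 in Hb9 cells and 1.27 in Drd4 cells (limma adjusted p = 0.0134 and 0.00599), and the call in Hb9 cells was lost without Hb9 replicate 2 and without Thy1 replicate 1. The other 7 genes did not pass. Cx3cl1, the fractalkine that Cx3cr1 reads, differed by -0.17 in Hb9 cells and 0.23 in Drd4 cells. Csf1, a ligand of the receptor encoded by Csf1r, differed by -0.53 and -0.31, and Il34, its other ligand, by -0.03 and -0.22 with no array above background. The inhibitory ligands Cd200 (0.13 and 0.27) and Cd47 (0.09 and -0.08), the growth factor Tgfb1 (-0.14 and 0.19) and the ectonucleotidase Entpd1 (-0.32 and -0.34) were also short of the threshold.

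Of 12 genes of activated microglia, 4 fell in Hb9 cells and 5 in Drd4 cells. Cst7, an inhibitor of cysteine cathepsins, differed by -2.56 and -2.18 (limma adjusted p = 0.000531 and 0.000453). Igf1, an insulin-like growth factor that neurons also make, measured 10.62 and 10.25 in Hb9 cells, 7.33 and 7.19 in Drd4 cells and 11.03 and 10.50 in Thy1 cells. It was lower by limma in Drd4 cells than in Thy1 cells (-3.50; adjusted p = 1.46e-05) and higher in Hb9 cells than in Drd4 cells (3.17; adjusted p = 1.96e-05). Lyve1, a hyaluronan receptor of vessel-associated macrophages and lymphatic endothelium, was higher in Drd4 cells than in Thy1 cells (1.04; limma adjusted p = 0.00789) and lower in Hb9 cells than in Drd4 cells (-1.34; limma adjusted p = 0.00217). The first of these Lyve1 calls was lost without Thy1 replicate 1. Without Hb9 replicate 1, 1 of the 12 genes of activated microglia fell in Hb9 cells.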
